A study of Mus musculus with 9 samples.

Results

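The mitochondrial ribosomal protein genes were followed in the livers of mice with nonalcoholic steatohepatitis (NASH), a fatty liver disease with inflammation and fibrosis. The members were all genes of the deposited count table whose symbol is Mrpl or Mrps, a number and at most 1 further letter. This rule, which used no measured value, gave 77 of 24008 listed genes, 48 named Mrpl and 29 named Mrps. Of these, 75 had enough reads to be tested, among 14379 tested genes in all.

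The study asked whether IRF4, a transcription factor, acts in skeletal muscle on the liver through FSTL1, a protein that muscle secretes. RNA was sequenced from 9 livers, with 3 mice per group and 1 library per mouse. All 3 groups were fed the same high fat and high carbohydrate diet with cholesterol, given with a fructose-glucose solution, which induces NASH. The study's methods describe 8-week-old male mice of the C57BL/6J strain. The 8 weeks are taken here as the age when the diet began, not when livers were taken. The methods give a diet of 24 weeks for the mouse model and of 12 weeks for the virus. The Flox group, which the labels call WT, carried IRF4 flox/flox alleles. The F4MKO group lacked IRF4 in skeletal muscle, where Myl-Cre removes the floxed alleles. The F4MKO + FSTL1 group had the same deletion, and its gastrocnemius muscle was injected with an AAV8 virus that carries Flag-tagged FSTL1 under the muscle creatine kinase promoter. Per the methods, the other groups received AAV-GFP, and livers were taken 4 weeks after injection, whereas the labels name no vector. The 3 numbered samples of each group were taken as separate mice.

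Mitochondria keep their own ribosome, which translates the few messages of the mitochondrial genome into core subunits of the respiratory chain and ATP synthase. Its RNA comes from mitochondrial DNA, but all of its proteins are encoded in the nucleus, made in the cytosol and imported. The large subunit forms peptide bonds and releases the nascent chain through a tunnel that faces the inner membrane, and the small subunit reads the message. Some of the proteins have bacterial counterparts, and others are found in mitochondria alone. Liver is rich in mitochondria, which burn fatty acids there, and factors such as GABP (an ETS protein), NRF1 and YY1 are known to bind promoters of nuclear genes for mitochondrial proteins.

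Upstream sequence is shown for 4 members. Of these, 3 hold a match to the exact letters searched and 1 does not. All 4 belong to the members that rose in F4MKO + FSTL1 livers, and they were chosen after their values were seen. The stretches end at or just before the annotated start of transcription, leave out annotated exons, and come from RefSeq promoters on GRCm38.p6, the build of the deposited counts. Capitals mark matches to the 8 motifs searched.
Mrpl34, chr8:71464676-71464925, plus strand: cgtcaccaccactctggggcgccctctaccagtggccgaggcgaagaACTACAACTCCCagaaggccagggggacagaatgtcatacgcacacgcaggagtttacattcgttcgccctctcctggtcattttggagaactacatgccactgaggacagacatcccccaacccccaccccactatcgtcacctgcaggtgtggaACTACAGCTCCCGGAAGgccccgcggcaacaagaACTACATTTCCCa
Mrpl9, chr3:94443086-94443317, plus strand: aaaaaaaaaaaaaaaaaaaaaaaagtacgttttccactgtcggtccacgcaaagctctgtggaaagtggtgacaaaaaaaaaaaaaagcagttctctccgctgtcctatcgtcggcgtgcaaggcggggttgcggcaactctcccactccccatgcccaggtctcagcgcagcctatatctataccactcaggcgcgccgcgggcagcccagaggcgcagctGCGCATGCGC
Mrps27, chr13:99344706-99344785, plus strand: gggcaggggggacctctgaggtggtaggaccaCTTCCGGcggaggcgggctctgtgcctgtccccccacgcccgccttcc
Mrpl45, chr11:97315466-97315715, plus strand: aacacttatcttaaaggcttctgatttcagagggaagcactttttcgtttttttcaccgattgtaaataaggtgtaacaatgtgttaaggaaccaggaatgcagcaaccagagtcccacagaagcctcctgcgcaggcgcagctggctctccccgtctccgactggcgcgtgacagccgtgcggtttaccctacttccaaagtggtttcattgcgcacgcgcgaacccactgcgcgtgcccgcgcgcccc
The Mrpl34 stretch holds the ETS letters CCGGAAG and, overlapping them, 1 of 3 matches to the Ronin (THAP11/ZNF143) motif in capitals. The Mrpl9 stretch ends in GCGCATGCGC, which holds the NRF1 letters GCGCATGCG on both strands in overlapping positions. In Mrps27, which shares this short stretch with the oppositely transcribed Ptcd2, the ETS letters lie on the other strand. The Mrpl45 stretch holds no match, which says only that these letters are not in this window. It does hold gcgcacgcg, which differs from the NRF1 letters by 1 base, and such variants were not searched.

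A RefSeq promoter entry was found for 66 of the 75 tested members. The ETS letters were present in 24 of them (36.4%), against 18.3% of the 10768 tested genes with an entry and 8.86% of all 32851 entries. The YY1 letters AAGATGGCG were in 12.1% of the members and 3.26% of tested genes, and the NRF1 letters in 10.6% and 3.72%. The Ronin motif was in 5 members (7.58%; Mrpl24, Mrpl34, Mrpl42, Mrpl50 and Mrps22) and 4.43% of tested genes; it was added after the Mrpl34 sequence was seen. The CCAAT letters (39.4% against 42.4%), TATAAA (7.58% against 9.68%), the E-box CACGTG (7.58% against 11.5%) and the cyclic AMP response element TGACGTCA (3.03% against 3.36%) had lower shares in members than in tested genes. Both strands were searched, and a match is a run of letters, not a shown binding site. Variants of these letters were not counted, so promoters without a match may still hold a form of the motif. The 24 members with the ETS letters had a median log2 fold change of F4MKO + FSTL1 against F4MKO of 0.25, and the 42 without them of 0.26.

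**Figure D1:**
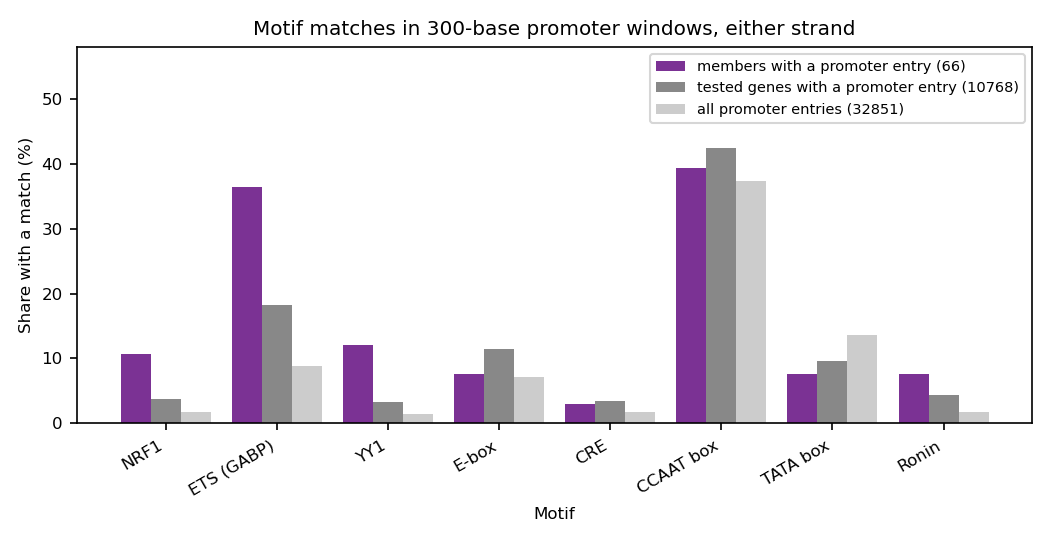
Bars give the share with at least 1 match to each motif (vertical axis, percent) among 66 members, 10768 tested genes and all 32851 promoter entries. Members and tested genes are counted once each, with a match in any of their entries. The members stand above the tested genes for ETS (36.4%), YY1 (12.1%), NRF1 (10.6%) and Ronin (7.58%), and below them for the other 4 motifs. Ronin was added after the Mrpl34 sequence was seen.

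Libraries held 20656976 to 24322984 counts, of which the members took 0.219% to 0.266%. The composition factors that scale the libraries (TMM) ran from 0.927 to 1.17, with the highest in F4MKO replicate 1. Levels are given in CPM, the reads of a gene per fixed library total after this scaling. Of 8 hepatocyte markers, 7 were tested, and their summed CPM lay between 80648 and 97863 in 8 libraries and at 66639 in F4MKO replicate 1. Of these 7, 6 were lower in F4MKO than in Flox (median log2 fold change -0.08) and 5 were higher in F4MKO + FSTL1 than in F4MKO (0.06). Of 10 endothelial markers, 9 were lower in F4MKO than in Flox (median -0.21) and 7 were higher in F4MKO + FSTL1 than in F4MKO (0.11), the directions of the members, with summed CPM of 380.0 to 468, 307 to 388 and 339.9 to 418 in Flox, F4MKO and F4MKO + FSTL1. All 10 stellate cell and myofibroblast markers were higher in F4MKO than in Flox (summed CPM 581 to 764 against 423 to 493), and all 10 were lower in F4MKO + FSTL1 (272 to 374) than in F4MKO. The 5 tested cholangiocyte markers had the same order (50.7 to 88.9, then 160 to 429.6, then 36.1 to 53.8 summed CPM), and of 10 macrophage markers 9 were lower in F4MKO + FSTL1 than in F4MKO (344 to 526 against 736 to 843). The part of cell composition in the results on the members was not tested, and in whole tissue, fewer cells of a type and less RNA per cell cannot be told apart. Of 5 skeletal muscle markers, 4 were too low to be tested. Irf4, which was deleted in muscle and not in liver, had 101 to 132 counts in Flox, 120 to 130 in F4MKO and 10, 92 and 116 in F4MKO + FSTL1, so the liver data cannot check the deletion. Liver Fstl1 had 138, 186 and 147 counts in Flox, 456, 234 and 284 in F4MKO and 114, 67 and 83 in F4MKO + FSTL1.

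The members lie on 17 chromosomes. Their proteins divide into 50 of the large subunit, among them Mrps30 and Mrps18a despite their names, 26 of the small subunit and Mrps36, which is now known as an adaptor of the 2-oxoglutarate dehydrogenase complex. By ancestry, 27 have counterparts in all ribosomes, 19 in bacterial ribosomes, and 30 belong to mitochondria alone. For 19 members, another protein-coding gene starts within 1000 bases on the opposite strand, such as Fau, 59 bases from Mrpl49, and Ndufs6, 29 bases from Mrpl36. Per kb of transcript (the longest annotated transcript of each gene, 488 to 7300 bases), the tested members ran from 0.935 to 98.5 CPM per kb with a median of 15.8. The highest were Mrps21 (98.5 CPM per kb), Mrpl14 (85.9) and Mrpl12 (79.5), and the lowest were Mrps18b (0.935), Mrps25 (1.82) and Mrpl19 (2.51). More than 10% of the 100-base windows of 12 members also occur in another annotated gene, with the largest shares in Mrps34 (77.2%), Mrps25 (72.0%), Mrpl53 (68.6%) and Mrps18b (56.9%). Other genes overlap 88.0% of the exonic bases of Mrpl53, 77.8% of Mrps34, 26.3% of Mrpl24 and 4.85% of Mrpl49. How the counting used strand and treated reads that fit several genes is not stated, so these levels are uncertain.

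The filter on low counts was failed by 2 members. Mrps23 had 2, 0 and 0 counts in Flox, 1, 1 and 1 in F4MKO and 1, 0 and 0 in F4MKO + FSTL1. Mrps10 had 4, 4 and 3 counts, then 4, 1 and 4, then 1, 5 and 0. Both encode small-subunit proteins and share no exon or window with another annotated gene, and the reason for the low counts was not tested.

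Most members shared the library in which they were lowest, and most shared the one in which they were highest. Relative to the Flox mean, the median member was at 0.04, -0.11 and 0.05 (log2) in Flox replicates 1, 2 and 3, at -0.29, -0.22 and -0.03 in F4MKO, and at -0.05, 0.06 and 0.19 in F4MKO + FSTL1. F4MKO replicates 1 and 2 were thus below every Flox library, whereas F4MKO replicate 3 lay within the range of Flox and above F4MKO + FSTL1 replicate 1. F4MKO replicate 1 was the lowest of the 9 libraries for 46 members and F4MKO replicate 2 for 17, and F4MKO + FSTL1 replicate 3 was the highest for 52. The median of all tested genes stayed within about 0.01 of the Flox mean in each library. TMM scaling brings the bulk of genes level between libraries, so this follows largely from the scaling. F4MKO replicate 1, with the lowest members, also had the lowest hepatocyte and the highest cholangiocyte marker sums (66639 and 429.6 CPM), whose part in the members' levels was not tested.

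**Figure D2:**
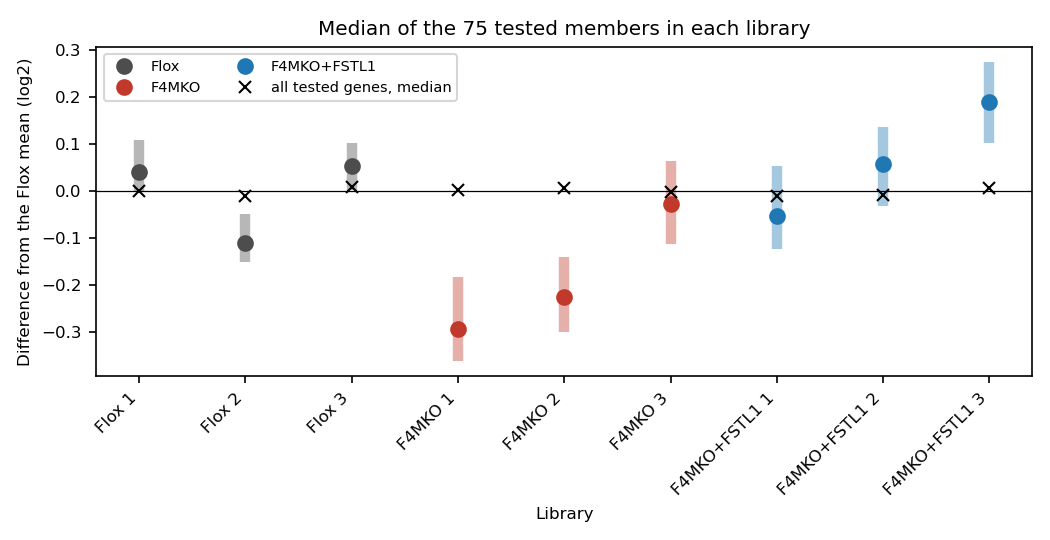
Points give the median log2 difference of the 75 tested members from the Flox mean in each of the 9 libraries, bars the interquartile range of the members, and crosses the median of all tested genes. The members run from -0.29 in F4MKO replicate 1 to 0.19 in F4MKO + FSTL1 replicate 3. The median of all genes stays near 0, which the TMM scaling largely sets.

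In F4MKO livers compared with Flox livers, nearly all members were slightly lower, but no member passed the test. The log2 fold change was below 0 for 74 of 75 members, with a median of -0.17 (interquartile range -0.23 to -0.11), a difference of -10.9%. With library totals in place of TMM, 55 of 75 members were below 0 and the median was -0.05, where that of all tested genes was 0.11. The median was -0.12 without F4MKO replicate 1 and -0.26 without F4MKO replicate 3. No member had an adjusted p under 0.05 in edgeR's quasi-likelihood test, where 0.278% of all tested genes did (0.271% with a fold change above 1.5 as well). DESeq2 put 1 member, Mrpl49, at an adjusted p of 0.0499. Without adjustment, 13 members (17.3%) had p under 0.05, all lower. Of all tested genes, 7.51% had p under 0.05 and were lower. In either direction, 2424 of the 14379 tested genes had p under 0.05. The F4MKO range lay wholly below the Flox range for 13 members, again 17.3%, against 10% of all tested genes. It lay wholly above for 0 members, against 1687 of the 14379 tested genes. Mrps18b, the least expressed member, was the only one above 0 (log2 fold change 0.12).

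Among the 8 members with the lowest p in this comparison, Mrpl49, a mitochondria-specific protein of the large subunit, had the smallest p. It had 34.9, 32.8 and 34.2 CPM in the Flox mice, 27.4, 27.7 and 27.2 CPM in the F4MKO mice and 35.1, 36.4 and 34.3 CPM in the F4MKO + FSTL1 mice. The F4MKO mice were below both other groups with no overlap, and the difference from Flox was not significant (log2 fold change -0.31 (SE 0.0784), adjusted p = 0.101). Mrpl34, a small protein of the large subunit with a bacterial counterpart, had a like difference (log2 fold change -0.39 (SE 0.121), adjusted p = 0.151), and its F4MKO values were also below all Flox values. The small-subunit protein Mrps16 had 22.7, 19.7 and 25.5 CPM in Flox and 15.6, 17.1 and 19.2 CPM in F4MKO (log2 fold change -0.39 (SE 0.141), adjusted p = 0.206). The exit-tunnel members Mrpl39 and Mrpl24 were at -0.24 (adjusted p = 0.187) and -0.19 (adjusted p = 0.247), and the large-subunit members Mrpl51, Mrpl28 and Mrpl53 at -0.33, -0.31 and -0.28 (adjusted p = 0.200, 0.224 and 0.233). Of these, only Mrpl51 had overlapping groups, through F4MKO replicate 3.

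In F4MKO + FSTL1 livers compared with F4MKO livers, the members were higher. The log2 fold change was above 0 for 73 of 75 members (50 of 75 with library totals in place of TMM), with a median of 0.25 (interquartile range 0.13 to 0.34), a difference of 19.2%. At an adjusted p under 0.05, 17 members rose and none fell, which is 22.7% of the members against 7.73% of all tested genes that rose and 20.9% that changed in either direction. The fold change of 1.5 was passed as well by 1 member, Mrpl34, and by 14.4% of all tested genes in either direction. The F4MKO + FSTL1 range lay wholly above the F4MKO range for 30 members, or 40.0%, against 18% of all tested genes, and wholly below for 1, against 21.1%. The comparison shares its F4MKO libraries with the one before, so low values in F4MKO enter both.

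The count of 17 depended on single libraries. It was 3 (4% of the members) without F4MKO replicate 1, where 3.30% of all tested genes rose, and 3 (4%) without F4MKO replicate 2, where 4.66% of all genes did. It was 4 (5.33%) without F4MKO + FSTL1 replicate 2, against 3.59% of all genes, and 4 (5.33%) without F4MKO + FSTL1 replicate 3, against 5.93%. In these 4 fits the share of members that rose was thus close to that of all genes, and the excess of 22.7% over 7.73% was not seen. Without F4MKO replicate 3, 27 members (36.0%) rose, against 8.44% of all genes. The median log2 fold change stayed between 0.19 and 0.33 with any library left out. With upper-quartile scaling, 6 members (8%) rose, against 5.20% of all genes. With library totals in place of TMM, 1 member (1.33%) rose, against 2.78% of all genes. There the median of the members was 0.06 and that of all tested genes -0.18. The median member was 0.24 above all genes, as with TMM (0.24). A change of scaling factors shifts all genes of a library alike. It thus leaves this difference nearly unchanged by construction, and the agreement tests nothing. When trends of the counts with transcript length and with GC content were taken out of each library, 32 members (42.7%) rose, against 18.4% of all genes, and the median member was 0.14 above all genes.

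**Figure D3:**
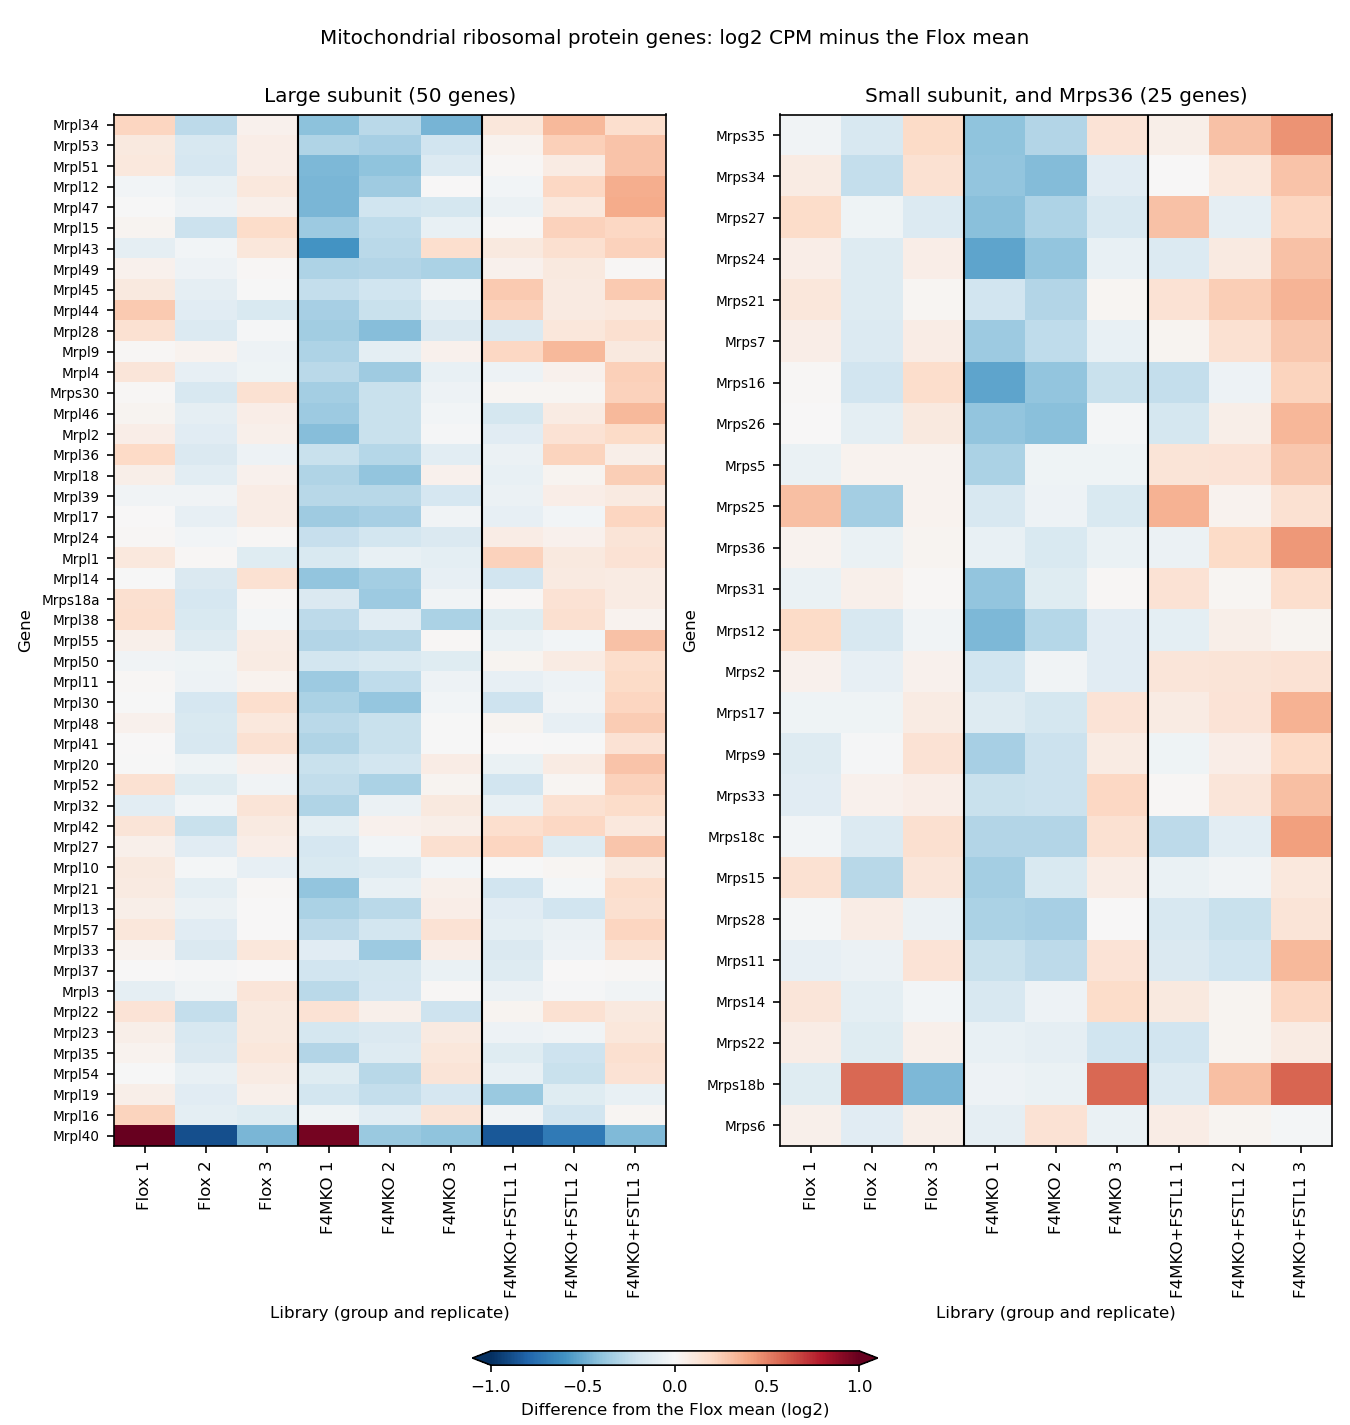
Each row is a tested member and each column a library; colour gives log2 CPM minus the Flox mean, from blue (lower) to red (higher), clipped at 1. Rows are ordered by the log2 fold change of F4MKO + FSTL1 against F4MKO, from Mrpl34 (0.59) to Mrpl40 (-0.90) in the large subunit, and F4MKO replicates 1 and 2 are blue for most members.

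Mrpl34 (chr8:71464959-71465747, plus strand), whose upstream sequence is given above, had the largest rise. It had 51.0, 36.7 and 45.2 CPM in the Flox mice, 33.0, 36.4 and 31.9 CPM in the F4MKO mice and 47.5, 55.1 and 49.4 CPM in the F4MKO + FSTL1 mice. All F4MKO + FSTL1 values were above all F4MKO values, and 2 of them were within the range of the Flox mice. The rise was significant (log2 fold change 0.59 (SE 0.121), adjusted p = 0.00718), and it kept an adjusted p under 0.05 in 18 of 18 other settings (log2 fold change 0.39 to 0.64). Its fold change lay at the limit of 1.5 and was under it in 8 of those settings, among them the fits without F4MKO replicate 1, without F4MKO replicate 3 and without F4MKO + FSTL1 replicate 2.

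Other large-subunit members rose by less. Mrpl49 rose from the F4MKO values given above to 35.1, 36.4 and 34.3 CPM (log2 fold change 0.36 (SE 0.0785), adjusted p = 0.00887), with 1 mouse within the range of the Flox mice and 2 above it. Mrpl53, of the stalk base, had 22.7, 19.0 and 22.3 CPM in the Flox mice, 17.3, 16.9 and 18.6 CPM in the F4MKO mice and 21.8, 25.1 and 26.0 CPM in the F4MKO + FSTL1 mice. The F4MKO + FSTL1 mice were above all F4MKO mice and overlapped with Flox (log2 fold change 0.46 (SE 0.109), adjusted p = 0.0126), and most of its exonic bases are shared with other genes. Mrpl51 had 40.4, 41.6 and 50.1 CPM in F4MKO and 55.4, 58.3 and 67.0 CPM in F4MKO + FSTL1 (log2 fold change 0.45 (SE 0.117), adjusted p = 0.0195), so F4MKO replicate 3 came near the F4MKO + FSTL1 mice without reaching them. Mrpl15, Mrpl9 and Mrpl50 also rose, with log2 fold changes of 0.38, 0.33 and 0.25 (adjusted p = 0.0444, 0.0464 and 0.0494).

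The counts by region, subunit and ancestry that follow stand against the 7.73% of all tested genes that rose. Around the exit tunnel, 4 of the 7 tested members assigned to it by hand rose (57.1%), and the median was 0.27. With so few members, shares by region rest on single calls, and no test compared the regions. Mrpl45, which anchors the ribosome to the inner membrane, had 42.6, 37.5 and 39.7 CPM in the Flox mice, 33.8, 34.7 and 39.0 CPM in the F4MKO mice and 47.8, 42.4 and 47.8 CPM in the F4MKO + FSTL1 mice. The F4MKO + FSTL1 mice were above all F4MKO mice (log2 fold change 0.36 (SE 0.0946), adjusted p = 0.0207), and 2 of them were above all Flox mice. Mrpl24 had 42.3, 41.1 and 42.3 CPM in the Flox mice, 35.7, 36.8 and 37.8 CPM in the F4MKO mice and 44.2, 43.1 and 45.7 CPM in the F4MKO + FSTL1 mice. No 2 groups overlapped, with F4MKO lowest and F4MKO + FSTL1 highest (log2 fold change 0.27 (SE 0.0762), adjusted p = 0.0286 for F4MKO + FSTL1 against F4MKO). Mrpl39 and Mrpl47 rose by 0.27 and 0.42 (log2; adjusted p = 0.0388 and 0.0456), whereas Mrpl22, Mrpl23 and Mrpl44 were at 0.09, 0.08 and 0.35 and did not pass.

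In the stalk, which recruits translation factors to the large subunit, 2 of 5 members rose (40.0%). Mrpl12, the mobile stalk protein, had 103, 99.9 and 113 CPM in the Flox mice, 76.8, 82.2 and 106 CPM in the F4MKO mice and 103, 121 and 135 CPM in the F4MKO + FSTL1 mice. It rose (log2 fold change 0.44 (SE 0.137), adjusted p = 0.0405) although F4MKO replicate 3 was above F4MKO + FSTL1 replicate 1. Mrpl10, which holds Mrpl12 on the ribosome, had 59.5, 54.6 and 52.5 CPM in the Flox mice, 50.01, 50.6 and 54.4 CPM in the F4MKO mice and 55.2, 56.1 and 59.2 CPM in the F4MKO + FSTL1 mice, with F4MKO + FSTL1 just above F4MKO and a difference that did not pass (log2 fold change 0.14 (SE 0.0845), adjusted p = 0.270). Mrpl11, at the stalk base, was at 0.24 (adjusted p = 0.138) and Mrpl54 at 0.04 (adjusted p = 0.863). In the central protuberance, a structure at the top of the large subunit, 0 of 6 members passed, and their median was 0.24.

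**Figure D4:**
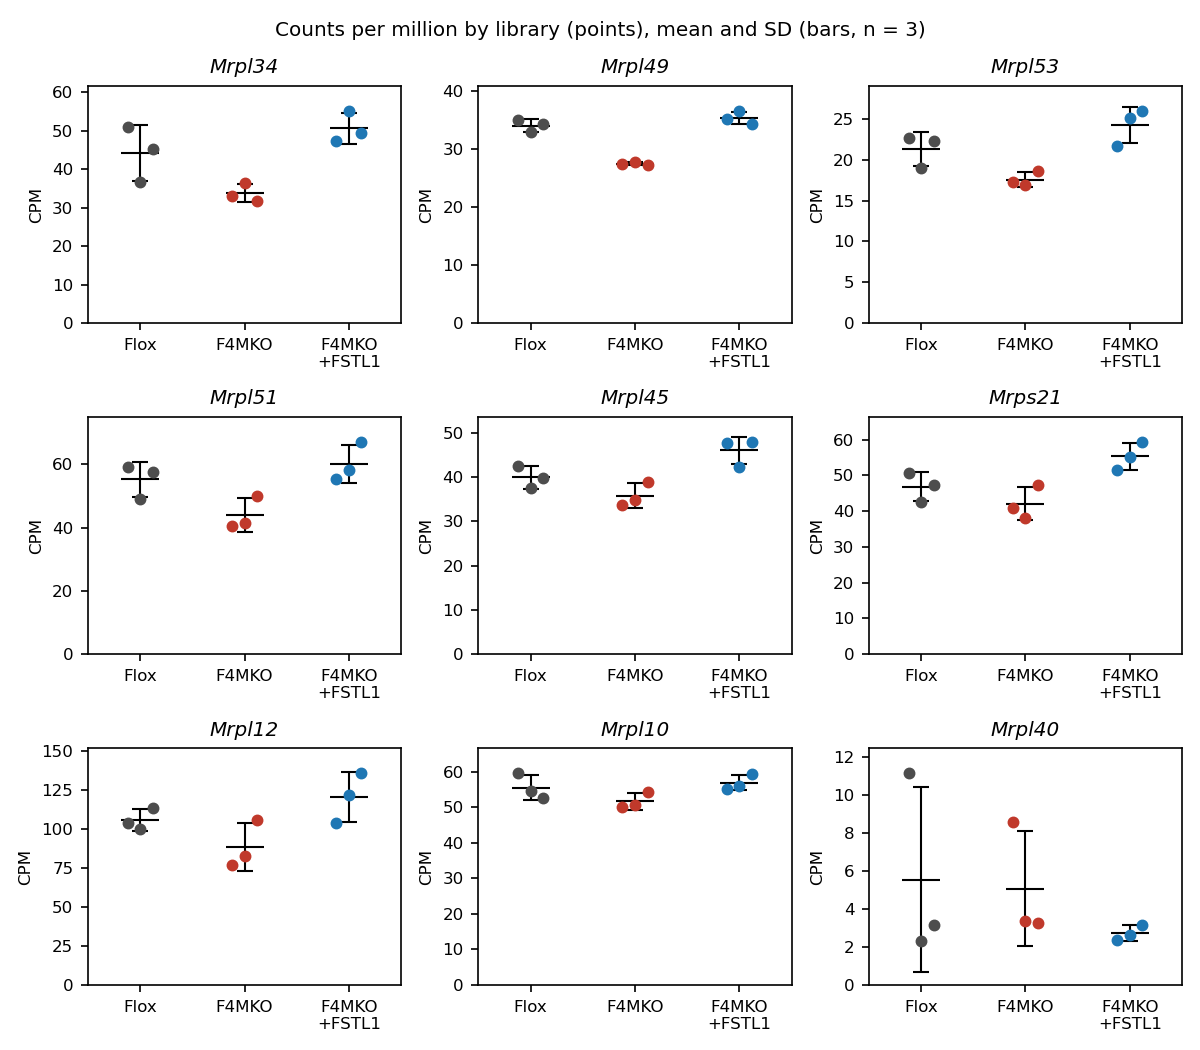
CPM of 9 members (vertical axes, starting at 0) in each library, with the mean and SD of 3 mice per group. In the first 6 panels the F4MKO + FSTL1 points lie above the F4MKO points, Mrpl12 and Mrpl10 show smaller or overlapping shifts, and Mrpl40 is highest in replicate 1 of Flox and of F4MKO.

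In the small subunit, 24 of 24 tested members were above 0 and 5 rose (20.8%, median 0.26). Mrps21, the most expressed member per kb, had 50.6, 42.6 and 47.2 CPM in the Flox mice, 40.8, 38.2 and 47.2 CPM in the F4MKO mice and 51.5, 55.3 and 59.2 CPM in the F4MKO + FSTL1 mice. The F4MKO + FSTL1 mice were above all mice of both other groups (log2 fold change 0.40 (SE 0.106), adjusted p = 0.0223 against F4MKO). Mrps7, of the small-subunit head, had 44.8, 48.5 and 54.9 CPM in F4MKO and 59.0, 64.1 and 69.6 CPM in F4MKO + FSTL1 (log2 fold change 0.38 (SE 0.107), adjusted p = 0.0282). Mrps34, Mrps27 and Mrps5 rose by 0.44, 0.44 and 0.31 (log2; adjusted p = 0.0322, 0.0336 and 0.0403), and for each of them all F4MKO + FSTL1 mice were above all F4MKO mice. Mrps35 had a like difference of 0.45, but its F4MKO replicate 3 was above F4MKO + FSTL1 replicate 1 and it did not pass (adjusted p = 0.0666).

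Across the large and small subunits the sizes were alike, with medians of 0.25 and 0.26, and 24% (12 of 50) and 20.8% (5 of 24) of the members rose, against 7.73% of all tested genes. By ancestry, 19.2% of the members with counterparts in all ribosomes (5 of 26), 21.1% of those with bacterial counterparts (4 of 19) and 27.6% of the mitochondria-specific members (8 of 29) rose, with medians of 0.25, 0.21 and 0.27. The 3 paralogs of Mrps18 did not pass the test: Mrps18a, of the large subunit, was at 0.26 (adjusted p = 0.121), Mrps18c at 0.17 (adjusted p = 0.532) and Mrps18b at 0.09 (adjusted p = 0.875). Mrps36 had 11.01, 10.3 and 10.96 CPM in the Flox mice, 10.2, 9.67 and 10.3 CPM in the F4MKO mice and 10.3, 12.3 and 14.5 CPM in the F4MKO + FSTL1 mice and was at 0.30 (adjusted p = 0.126). The 63 members with under 10% of their windows in other genes had a median of 0.25, and 13 of them rose.

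Mrpl40 and Mrpl16 were the members below 0. Mrpl40, of the central protuberance, had 250, 57 and 71 counts in Flox, 242, 80 and 82 in F4MKO and 51, 55 and 61 in F4MKO + FSTL1. Replicate 1 of Flox and of F4MKO thus stood apart from the other 7 libraries, which lay between 51 and 82. The log2 fold change of F4MKO + FSTL1 against F4MKO was -0.90 with an SE of 0.558 (adjusted p = 0.277), and F4MKO replicate 1 had most of the F4MKO counts. Mrpl16 was at -0.06 (adjusted p = 0.739), and Mrpl19, another low member per kb, at 0.01.

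In F4MKO + FSTL1 livers compared with Flox livers, the members were close to level. The median log2 fold change was 0.08 (interquartile range 0.01 to 0.14), with 58 of 75 members above 0, or 38 of 75 with library totals in place of TMM, where the median was 0.00. It was 0.02 without Flox replicate 2 and 0.02 without F4MKO + FSTL1 replicate 3. No member had an adjusted p under 0.05 in edgeR's test or in DESeq2, and 0.00695% of all tested genes, a single gene, did, and the same share (0.00695%) passed the fold change of 1.5 as well. Without adjustment, Mrps21 alone had p under 0.05 (log2 fold change 0.24 (SE 0.106), adjusted p = 0.351), 1 of 75 members against 4.26% of all tested genes that were higher. The F4MKO + FSTL1 range lay wholly above the Flox range for 5 members (Mrps2, Mrps5, Mrps21, Mrpl9 and Mrpl24), or 6.67%, against 7.44% of all tested genes. The next by p were Mrpl45 (0.20), Mrpl9 (0.21), Mrps5 (0.18), Mrpl40 (-1.01, where Flox replicate 1 stood apart), Mrps17 (0.19), Mrpl53 (0.19) and Mrps35 (0.27), none of which passed. This comparison shares its libraries with the first and second ones.

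The other genes of mitochondrial translation were read from lists that follow the steps of the pathway. The lists were written by hand, with earlier results of these data known. Of 6 tested ribosomal proteins that bear other names, all were below 0 in F4MKO against Flox (median -0.19) and above 0 in F4MKO + FSTL1 against F4MKO (median 0.27), and Gadd45gip1, a large-subunit protein at the exit tunnel, rose in the second (log2 fold change 0.40 (SE 0.126), adjusted p = 0.0424). Gadd45gip1 had 47.7, 38.4 and 43.7 CPM in the Flox mice, 30.9, 35.4 and 35.4 CPM in the F4MKO mice and 37.4, 46.0 and 51.1 CPM in the F4MKO + FSTL1 mice, with the F4MKO mice below all others. Dap3, the GTP-binding protein of the small subunit, was at 0.13, Ptcd3 at 0.09, Chchd1 at 0.30, Aurkaip1 at 0.24 and the release factor-like Ict1 at 0.31, and none passed. In F4MKO against Flox, none of the listed genes had an adjusted p under 0.05, the closest being the valyl-tRNA synthetase Vars2 (log2 fold change -0.46 (SE 0.0989), adjusted p = 0.0624), with 25.5, 25.6 and 26.9 CPM in Flox and 17.7, 19.6 and 19.3 CPM in F4MKO.

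In F4MKO + FSTL1 against F4MKO, where 7.73% of all tested genes rose, 3 of 25 assembly and rRNA modification genes did (12%), none fell, and the median was 0.24. They were Ngrn, needed for the large ribosomal RNA (log2 fold change 0.48 (SE 0.105), adjusted p = 0.00960), the assembly GTPase Noa1 (0.43, adjusted p = 0.0239) and Mterf3, which acts in ribosome assembly (0.35, adjusted p = 0.0371). Of 13 translation factors, 3 rose (23.1%, median 0.25), namely the initiation factors Mtif3 and Mtif2 and the recycling factor Mrrf. Mtif3 had 24.4, 20.8 and 25.3 CPM in the Flox mice, 19.1, 18.6 and 20.1 CPM in the F4MKO mice and 27.8, 27.6 and 26.4 CPM in the F4MKO + FSTL1 mice, so that F4MKO + FSTL1 was above both other groups (log2 fold change 0.50 (SE 0.0988), adjusted p = 0.00553 against F4MKO, and adjusted p = 0.378 against Flox). Of 20 genes that charge mitochondrial transfer RNAs, only the histidyl-tRNA synthetase Hars2 rose (0.35, adjusted p = 0.0435), and the share that rose (5%) and the median (0.12) were below those of the members. Of 16 genes of mitochondrial transcription and RNA handling, 4 rose (25%, median 0.19). Hsd17b10, which is both a dehydrogenase and a subunit of mitochondrial RNase P, passed the fold change of 1.5 as well. It had 180.3, 168 and 162 CPM in the Flox mice, 96.6, 121 and 152 CPM in the F4MKO mice and 261, 201 and 244 CPM in the F4MKO + FSTL1 mice. The groups did not overlap in any pair (log2 fold change 0.93 (SE 0.158), adjusted p = 0.00313 for F4MKO + FSTL1 against F4MKO, and adjusted p = 0.226 against Flox). The RNA granule protein Grsf1 and the transcription factors Tfb2m and Tfam rose by 0.38, 0.35 and 0.38 (log2; adjusted p = 0.0174, 0.0264 and 0.0379).

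Of 9 regulators of nuclear genes for mitochondrial proteins, 1 rose in F4MKO + FSTL1 against F4MKO (11.1%, against 7.73% of all tested genes). It was Esrra, a nuclear receptor that acts on respiratory genes, with 30.2, 30.1 and 34.1 CPM in the Flox mice, 24.2, 28.9 and 28.1 CPM in the F4MKO mice and 32.1, 37.2 and 37.6 CPM in the F4MKO + FSTL1 mice (log2 fold change 0.40 (SE 0.105), adjusted p = 0.0224). Gabpa, Nrf1 and Yy1, whose motifs were searched in the promoters, were at 0.16, 0.04 and 0.15 and did not pass (adjusted p = 0.302, 0.859 and 0.321). Myc had 7.44, 7.50 and 10.3 CPM in the Flox mice, 14.3, 12.6 and 13.2 CPM in the F4MKO mice and 4.86, 3.36 and 14.2 CPM in the F4MKO + FSTL1 mice, highest in F4MKO apart from F4MKO + FSTL1 replicate 3, and did not pass (adjusted p = 0.145). The 13 messages that the mitochondrial ribosome translates took 5.53% to 7.02% of all counts. Their median was -0.02 in F4MKO against Flox and 0.23 in F4MKO + FSTL1 against F4MKO, where COX3, a subunit of cytochrome c oxidase, rose (log2 fold change 0.49 (SE 0.136), adjusted p = 0.0259) as 1 of 13 (7.69%, the share of all tested genes being 7.73%), and COX2 did not pass (0.40, adjusted p = 0.0683).

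**Figure D5:**
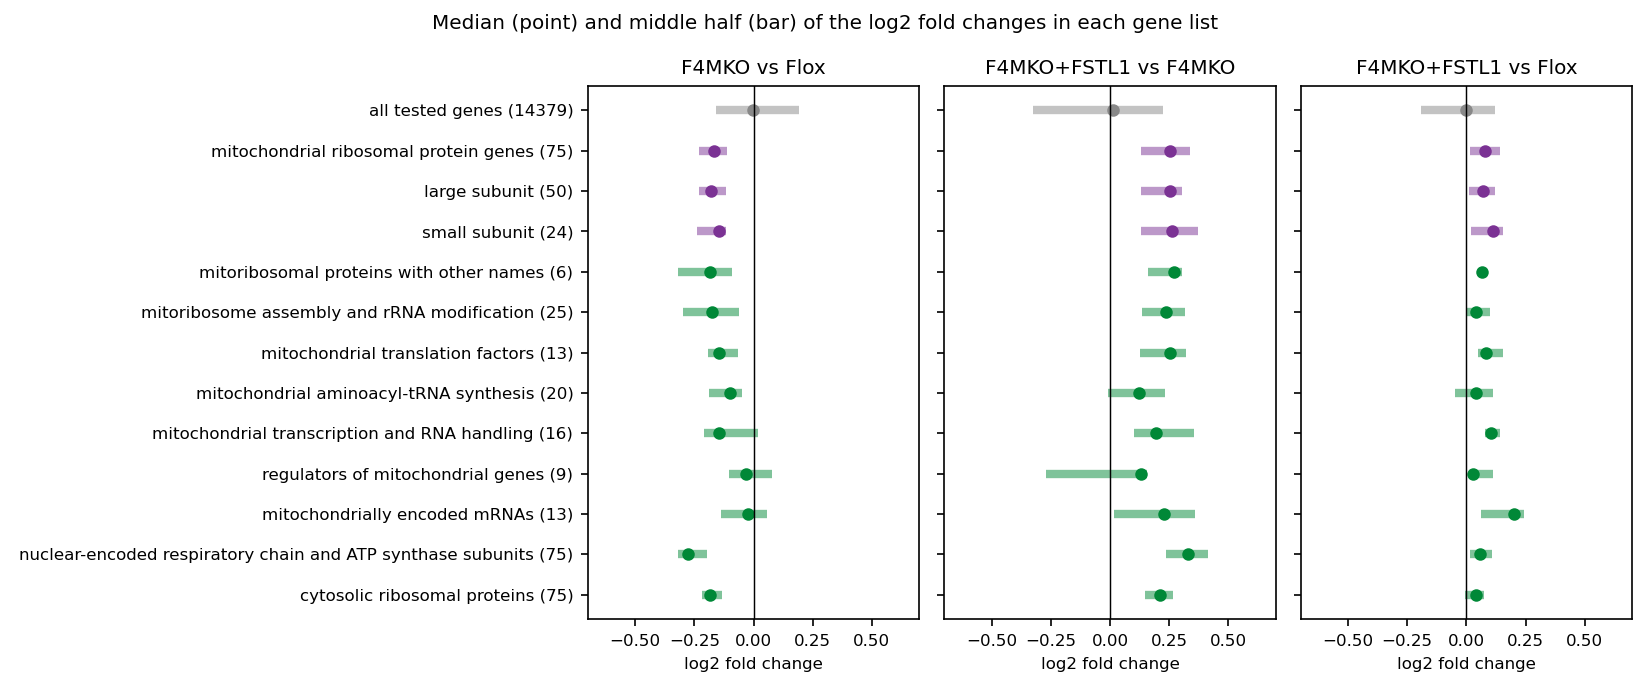
Points give the median and bars the interquartile range of the log2 fold changes (horizontal axes) of each gene list in the 3 comparisons, with the number of tested genes in brackets. The mitochondrial ribosomal protein genes lie below 0 in F4MKO against Flox (-0.17) and above 0 in F4MKO + FSTL1 against F4MKO (0.25), as do the respiratory chain subunits (-0.28 and 0.33) and the cytosolic ribosomal proteins (-0.18 and 0.21).

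Both of the other gene families chosen by symbol had the same order of groups. The 75 tested nuclear-encoded subunits of the respiratory chain and ATP synthase had medians of -0.28, 0.33 and 0.06 in the 3 comparisons. In F4MKO + FSTL1 against F4MKO, 11 of them (14.7%) rose, against 7.73% of all tested genes. Their F4MKO + FSTL1 range lay wholly above the F4MKO range for 31 of 75. The same held for 30 of the 75 members and 18% of all tested genes. In F4MKO against Flox, 26 of the 75 respiratory chain and ATP synthase subunits had an unadjusted p under 0.05 in edgeR's test. So did 13 of the 75 members and 2424 of the 14379 tested genes, counted in either direction. The 75 tested cytosolic ribosomal proteins had medians of -0.18, 0.21 and 0.04, and none passed the test. Their F4MKO + FSTL1 range lay wholly above the F4MKO range for 1 of 75. The 2640 tested genes with a transcript of at most 1849 bases, the median length of the members, had medians of -0.12 and 0.15 in the first and second comparisons, against 0.02 and -0.02 for the 10747 longer genes. In the second comparison 13.1% of the shorter and 6.41% of the longer genes rose. By the same measure, the members had medians of -0.18 and 0.26 for the 38 shorter ones and -0.16 and 0.25 for the 37 longer ones. Lengths are of the longest annotated transcript, up to 7300 bases in the members, which need not be the one expressed in liver. This split therefore cannot separate short from long messages in liver. Relative to all tested genes, the members stood at -0.16 and 0.24, and after the length and GC trends were taken out they stood at -0.11 and 0.14.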

How the data were processed

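RNA sequencing of liver was analysed from 9 mouse libraries, 3 per group. Per the labels, the authors trimmed reads with Trim Galore 0.6.7, aligned them to mm10 with HISAT2 2.2.1 and deposited featureCounts 2.0.1 read counts per gene, neither scaled nor filtered. The annotation and the handling of strand and multiply mapped reads are not given in the sources used here. Counts were kept by filterByExpr (minimum count 10, minimum total 15) and scaled by TMM. All 9 libraries entered 1 quasi-likelihood fit in edgeR 4.0.16 (R 4.3.3), with p-values adjusted by Benjamini-Hochberg over 14379 genes. A rise or fall means an adjusted p under 0.05, and the study's fold change of 1.5 is given beside it. SE is the log2 fold change divided by the square root of F. DESeq2 1.42.0 was an alternative. The fit was run on simulated data whose changed genes had changes no smaller than a fold change of 1.5. It therefore does not show how changes as small as those of most members are recovered.

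Named members were the called ones, the 8 smallest p in each comparison, the 3 highest and lowest per kb and the untested ones, plus fixed structural examples; others are summarised or were added after their values were seen. Lists were written by hand, and members and lists were chosen with earlier results of these data known. Gene lengths and exons came from GENCODE vM21 (GRCm38).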

Additional observations from a re-analysis of the deposited data

How the results depend on the processing

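The directions of the members' medians in F4MKO against Flox and in F4MKO + FSTL1 against F4MKO held under every setting tried, and the counts did not. In F4MKO + FSTL1 against Flox, the median with library totals lay too close to 0 to give a direction. In F4MKO + FSTL1 against F4MKO, 25 members (33.3%, all genes 9.76%) rose with the replicate number as a block, 34 (45.3%, all genes 20.1%) with the replicate block and the length and GC trend together, and 32 (42.7%, all genes 18.4%) with the trend alone. Nothing states that a number marks paired mice. Same-numbered deviations correlated over all genes by 0.11, 0.09 and 0.30 in that comparison, where each library correlated best with its own number, and by -0.10 to 0.21 in the others. Over the members they correlated by 0.82, 0.17 and 0.31 in F4MKO against Flox, -0.01, 0.19 and 0.45 in F4MKO + FSTL1 against F4MKO, and 0.10, -0.01 and 0.05 in F4MKO + FSTL1 against Flox. The block changed no other call. The count of 17 (22.7%, all genes 7.73%) became 6 (8%, all genes 5.20%) with upper-quartile factors, 10 (13.3%, all genes 6.17%) with only the 6 libraries compared and 1 (1.33%, all genes 2.78%) with library totals (an alternative chosen after seeing the data), where the median moved from 0.25 to 0.060. Leaving out each library in turn gave counts of 3 to 27 (4% to 36.0%, all genes 3.30% to 8.44%) and medians of 0.19 to 0.33, and in 4 of these fits the members' share was close to that of all genes. The count past the fold change of 1.5, 1 here, was 0 with upper-quartile factors, library totals, the 6 libraries or the test against a fold change of 1.5, and 0 to 3 with libraries left out. In F4MKO against Flox, DESeq2 gave 1 member an adjusted p under 0.05 in place of 0, with no member past the fold change of 1.5 as well, and medians without each library ran from -0.26 to -0.12; in F4MKO + FSTL1 against Flox they ran from 0.02 to 0.12. Causes were not tested. Among the 24 results on members named by p, 33 alternative values (7 members) lost significance, 1 gained it (Mrpl49 in F4MKO against Flox with DESeq2), 398 kept their side and none turned direction. With 3 mice per group, differences near the common coefficient of variation of 0.150 are hard to detect.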
